A study of Mus musculus with 55 samples.

Results

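The genes described here are 9 liver genes that make urea from ammonia or feed that pathway: the cycle enzymes Cps1, Otc, Ass1, Asl and Arg1, the activator enzyme Nags, the mitochondrial carriers Slc25a15 and Slc25a13, and the mitochondrial carbonic anhydrase Car5a. They were named as a list and looked up by symbol, and all 9 of the 24475 symbols in the count table had a single row. All 9 were among the 13311 genes that passed the filter on low counts. Messenger RNA was sequenced from 55 livers of male mice aged 5 months. OTC mice (B6EiC3Sn a/A-Otcspf-ash/J) carry the spf-ash allele of Otc, and WT mice were B6EiC3SnF1/J. The 6 groups were OTC sh-Gls2 (10 livers), OTC sh-Glud1 (8), OTC control (8), WT sh-Gls2 (10), WT sh-Glud1 (9) and WT control (10). Each mouse received an AAV (adeno-associated virus) vector into a vein at 4 months, carrying a short hairpin RNA against Gls2, a hairpin against Glud1, or, in controls, a scrambled hairpin. All 6 groups, controls included, ate a diet with 40% protein from week 2 after the injection until the livers were taken at week 5. The promoter that drives the hairpins and the hairpin sequences are not given in the sources used here, and the strains are separate stocks, so effects of the Otc allele and of other differences between the stocks cannot be told apart.

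The urea cycle runs in hepatocytes around the portal vein and turns toxic ammonia into urea. In mitochondria, Nags makes N-acetylglutamate, the obligate activator of Cps1, which joins ammonia and bicarbonate (supplied in part by Car5a) into carbamoyl phosphate, and Otc joins that to ornithine, which Slc25a15 (the ornithine and citrulline exchanger, ORC1) brings in. In the cytosol, Ass1 joins citrulline to aspartate, which Slc25a13 (citrin) exports from mitochondria, Asl splits the product into arginine and fumarate, and Arg1 splits arginine into urea and ornithine. Gls2 (liver glutaminase) and Glud1 (glutamate dehydrogenase), the hairpin targets, are both sources of mitochondrial ammonia.

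Mouse Otc lies on chromosome X at 10252305 to 10321024 on the plus strand (GRCm38, GENCODE M21), so males carry 1 copy. The spf-ash allele is a hypomorphic allele that lowers the amount of normal transcript and enzyme. The counts are per gene and do not tell splice forms apart. The other members lie at 67123026 to 67231259 on chromosome 1 (Cps1), 31470207 to 31520672 on 2 (Ass1), 130011258 to 130029247 on 5 (Asl), 6041218 to 6217173 on 6 (Slc25a13), 22375551 to 22398597 on 8 (Slc25a15), 121916126 to 121944904 on 8 (Car5a), 24915221 to 24927484 on 10 (Arg1) and 102145513 to 102149477 on 11 (Nags). The whole of Car5a overlaps the gene Gm20388 on the opposite strand, over 28779 bases, and Nags overlaps Gm11586 over 698 bases. The libraries kept strand, but whether the counting used it is not given in the sources used here, so the values of Car5a and Nags are uncertain in this respect.

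Total counts per library lay between 14489866 and 22781052. The hairpins' own targets were low where the labels place the hairpins. Gls2 averaged 198 ± 23.9 CPM (TMM-normalized counts scaled to library size; SD, n = 10) in OTC sh-Gls2 livers and 439 ± 84.4 CPM in OTC control livers (n = 8), and 204 ± 30.01 CPM in WT sh-Gls2 livers and 441 ± 67.2 CPM in WT control livers (n = 10 each). Glud1 averaged 444 ± 105 CPM in OTC sh-Glud1 livers and 1068 ± 121 CPM in OTC control livers (SD, n = 8 each), and 386 ± 123 CPM in WT sh-Glud1 livers (n = 9) and 1035 ± 104 CPM in WT control livers (n = 10). The hepatocyte list (10 genes, none at zero) summed to between 94444 and 160000 CPM per liver over all groups. In bulk tissue, fewer cells of a type and less RNA per cell cannot be told apart. OTC control mice 3 and 67 and OTC sh-Glud1 mice 58 and 65 stood apart in several of the members, so results that rest on them are also given without them. They were singled out with the members' values known.

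Per transcript length (TPM, as deposited), Ass1 was the most abundant member in all 6 groups and Nags the least. In WT control livers Ass1 averaged 4368 ± 746 TPM, Cps1 1585 ± 262 TPM, Arg1 1393 ± 225 TPM, Otc 484 ± 86.0 TPM and Asl 428 ± 69.9 TPM (SD, n = 10). The carriers were lower, with 159 ± 16.6 TPM for Slc25a15 and 117 ± 9.97 TPM for Slc25a13, and Car5a had 76.7 ± 15.3 TPM and Nags 41.6 ± 3.69 TPM in the same livers. The neighbours Cps1 and Arg1, and Otc and Asl, lay within their spread of each other. In OTC control livers the order differed at Otc, which averaged 53.3 ± 10.49 TPM (n = 8), close to Car5a at 52.98 ± 17.1 TPM and Nags at 46.8 ± 7.81 TPM. Ass1, Cps1, Arg1 and Asl led in that group with 6235 ± 1950, 2542 ± 718, 2430 ± 962 and 1096 ± 694 TPM.

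**Figure D1:**
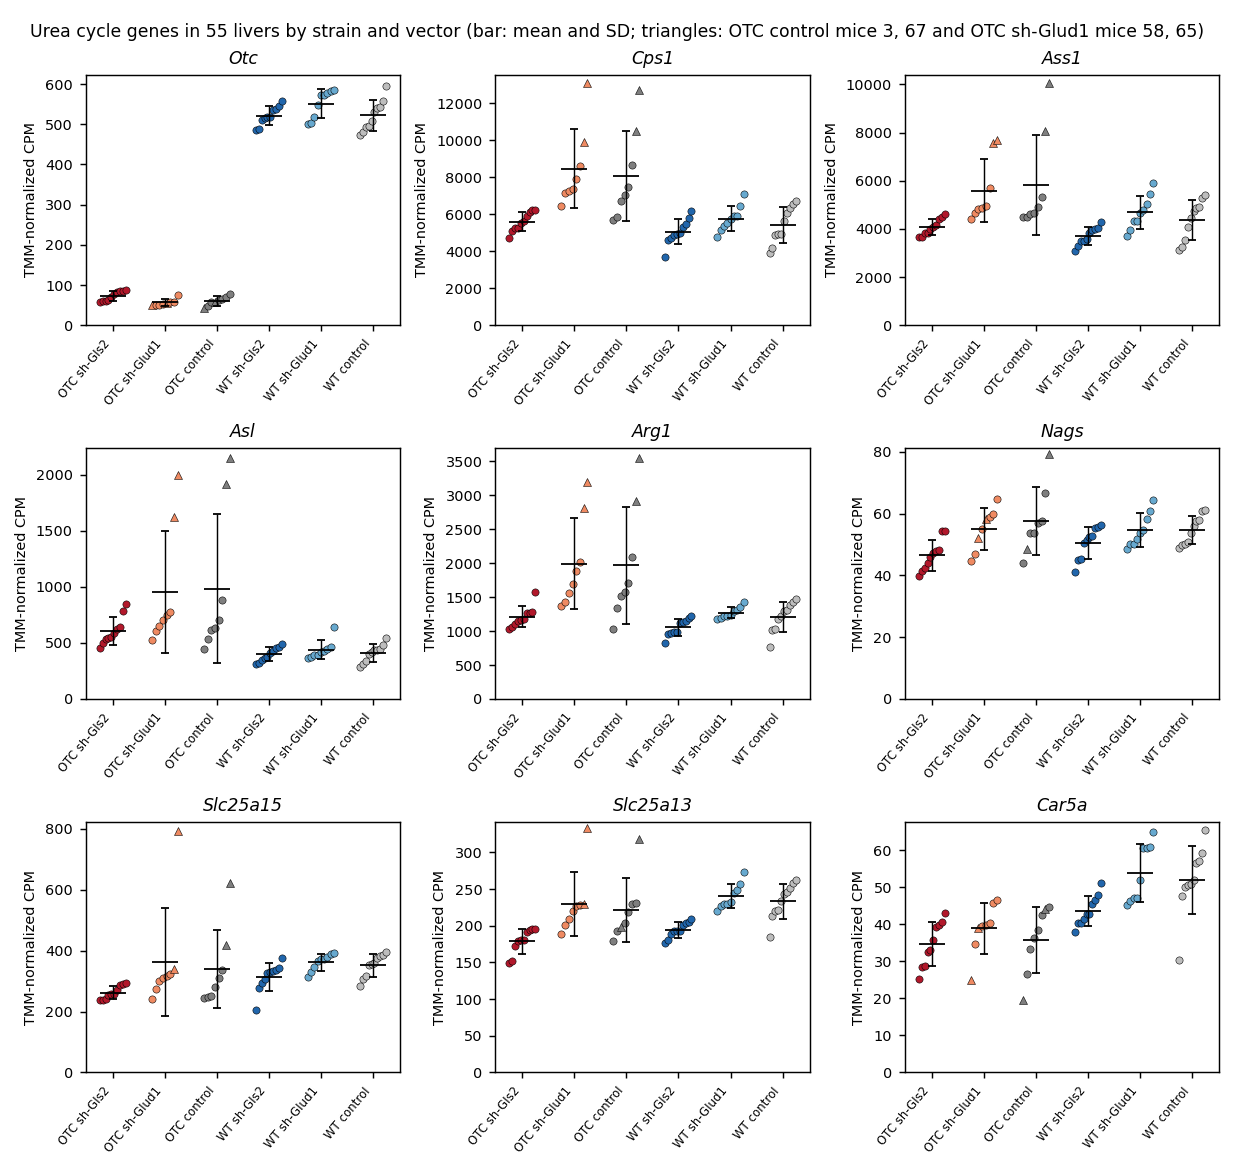
TMM-normalized CPM of the 9 members in each of the 55 livers (points; y axes start at 0), by group, with the mean and SD as bars; triangles mark OTC control mice 3 and 67 and OTC sh-Glud1 mice 58 and 65. Otc lies between 43.02 and 87.2 CPM in OTC livers and between 473 and 596 CPM in WT livers, and the triangles lead Cps1, Ass1, Asl and Arg1 in their groups.

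The comparison of strains asks how the cycle's transcripts differ where OTC activity is impaired. Otc itself was lower in OTC livers under each vector, and its groups did not overlap; among all genes, 1.91% lay wholly lower in OTC livers under the control vector, 1.71% under sh-Gls2 and 2.88% under sh-Glud1. Under the control vector Otc ran from 43.02 CPM through a median of 61.5 to 79.1 CPM in 8 OTC livers, and from 473 through 520 to 596 CPM in 10 WT livers. OTC livers thus had 11.7% of the WT mean, a log2 fold change of -3.09 ± 0.09 (SE), with an adjusted p of 8.88e-33 in edgeR's quasi-likelihood test with Benjamini-Hochberg adjustment over 13311 genes. Otc had the smallest p of all genes tested. With the hairpins the share was 14.1% under sh-Gls2 (log2 fold change -2.82 ± 0.08) and 10.4% under sh-Glud1 (-3.27 ± 0.09).

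Besides Otc, the enzymes on either side of it were higher in OTC control livers than in WT control livers, and Car5a was lower. Of the 9 members, 4 were called higher (Cps1, Ass1, Asl and Arg1) and 2 lower (Otc and Car5a) at an adjusted p below 0.05; over all 13311 genes, 36.3% were called, 19.9% higher and 16.4% lower. The largest rise was in Asl, argininosuccinate lyase. Asl ran from 448 CPM through a median of 667 to 2147 CPM in OTC control livers and from 290 through 429 to 541 CPM in WT control livers. Of the 8 OTC livers, 6 lay above every WT liver, and the log2 fold change was 1.26 ± 0.23 (SE, adjusted p = 1.71e-05, edgeR). Arg1, the enzyme that releases urea, ran from 1025 through 1643 to 3556 CPM in OTC control livers and from 771 through 1257 to 1469 CPM in WT control livers (log2 fold change 0.70 ± 0.15, adjusted p = 0.000288, edgeR). Cps1, the entry enzyme, ran from 5710 through 7265 to 12700 CPM in OTC control livers and from 3940 through 5306 to 6710 CPM in WT control livers (0.58 ± 0.12, adjusted p = 0.000237, edgeR). For both genes, 6 of 8 OTC livers lay above every WT liver. Ass1, which makes argininosuccinate, ran from 4489 through 4797 to 10058 CPM in OTC control livers and from 3145 through 4605 to 5414 CPM in WT control livers. Its groups overlapped widely, with 2 of 8 OTC livers above every WT liver (0.42 ± 0.13, adjusted p = 0.00853, edgeR). Without mice 3 and 67 the log2 fold change of Asl was 0.62 (adjusted p = 0.00986, edgeR) and that of Cps1 0.34 (adjusted p = 0.0223, edgeR). The calls of Ass1 (0.11, adjusted p = 0.477, edgeR) and Arg1 (0.34, adjusted p = 0.0515, edgeR) ended without them, and that of Ass1 also in a fit of these groups alone (adjusted p = 0.0805, edgeR).

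Car5a was called lower in OTC livers under each vector, although the call under sh-Gls2 did not hold in every setting. It ran from 19.7 CPM through a median of 37.3 to 44.6 CPM in OTC control livers and from 30.4 through 51.4 to 65.4 CPM in WT control livers (log2 fold change -0.54 ± 0.12, adjusted p = 0.000495, edgeR), and its log2 fold changes were -0.33 ± 0.12 under sh-Gls2 and -0.47 ± 0.13 under sh-Glud1. Under sh-Gls2 the call of Car5a ended with scaling to the hepatocyte list (-0.22, adjusted p = 0.156, edgeR) and on log2(TPM + 1) (-0.24, adjusted p = 0.179, limma). Nags and the carriers were not called. Under the control vector their log2 fold changes had 95% intervals of -0.08 to 0.23 for Nags, -0.34 to 0.24 for Slc25a15 and -0.24 to 0.08 for Slc25a13. When OTC control mice 3 and 67 and OTC sh-Glud1 mice 58 and 65 were all left out, Slc25a15 (-0.34) and Slc25a13 (-0.16) were called lower in OTC control livers.

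Under sh-Glud1 the strains showed a like set of calls, with Cps1, Asl and Arg1 higher and Otc and Car5a lower, 5 of 9 members, against 35% of all genes (19.9% higher, 15.1% lower). Asl ran from 525 through 724 to 1995 CPM in OTC sh-Glud1 livers and from 364 through 422 to 646 CPM in WT sh-Glud1 livers (log2 fold change 1.13 ± 0.23). Cps1 ran from 6480 through 7647 to 13092 CPM in OTC sh-Glud1 livers and from 4787 through 5764 to 7111 CPM in WT sh-Glud1 livers (0.55 ± 0.13), with 7 of 8 OTC livers above every WT liver. Without mice 58 and 65 the log2 fold changes of Asl and Cps1 were 0.60 and 0.36, and the call of Arg1 ended (0.38, adjusted p = 0.0571, edgeR). Under sh-Gls2 only Asl, Otc and Car5a were called, 3 of 9 members, against 29.5% of all genes (14.5% higher, 14.9% lower). Asl ran from 456 through 572 to 845 CPM in OTC sh-Gls2 livers and from 314 through 396 to 494 CPM in WT sh-Gls2 livers, and 9 of 10 OTC livers lay above every WT liver (0.61 ± 0.21, adjusted p = 0.0243, edgeR). Cps1, Ass1 and Arg1 had log2 fold changes of 0.15, 0.14 and 0.20 there and did not pass the test. Leaving out OTC sh-Gls2 mouse 4 ended the call of Asl (adjusted p = 0.0542, edgeR), and leaving out OTC sh-Gls2 mouse 21 ended that of Car5a (adjusted p = 0.0544, edgeR).

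**Figure D2:**
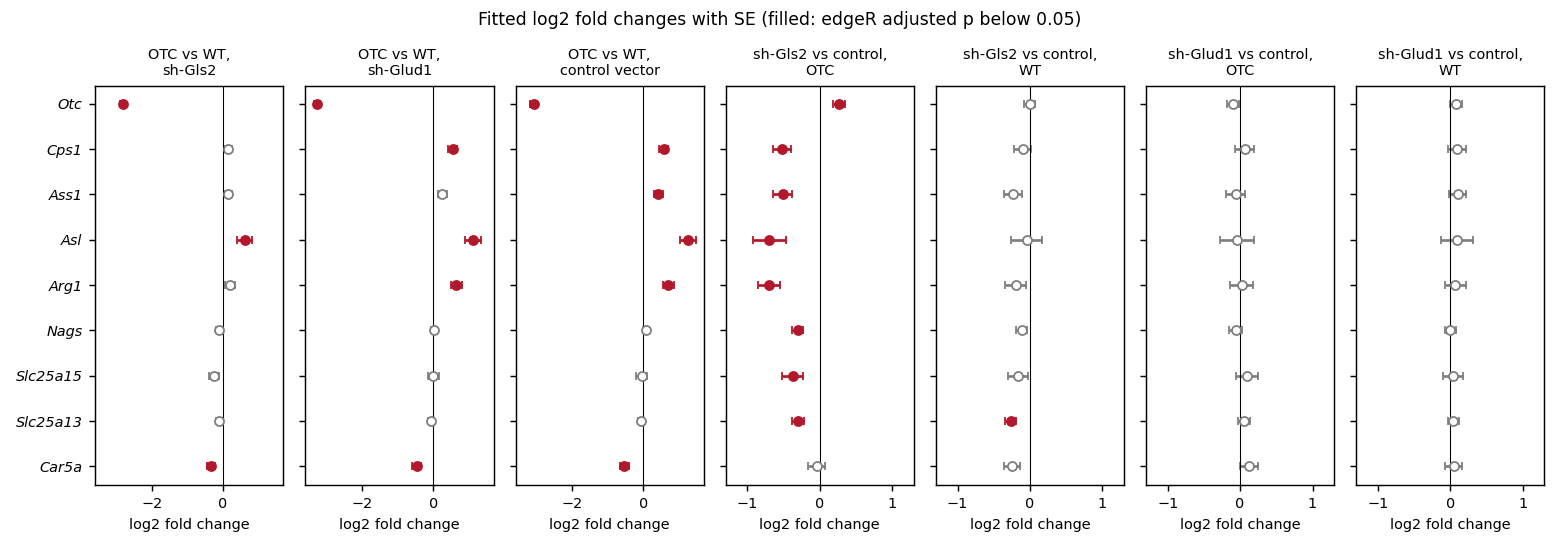
Log2 fold change (x axis) of each member in 3 comparisons of strains and 4 of hairpins with the control vector, with SE as bars and calls at an adjusted p below 0.05 filled. Otc lies at or below -2.82 in the strain comparisons, 8 of 9 members are filled for sh-Gls2 in OTC livers, 1 for sh-Gls2 in WT livers, and none for sh-Glud1; the x axis of the strain comparisons is wider than that of the hairpins.

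The hairpin comparisons ask whether lowering an ammonia-releasing enzyme changes the cycle's transcripts. In OTC livers sh-Gls2 came with lower levels of 7 of the 9 members and a higher level of Otc. Over all genes, 42.7% were called in this comparison, 20.2% higher and 22.6% lower. Arg1 ran from 1028 CPM through a median of 1176 to 1571 CPM in OTC sh-Gls2 livers and from 1025 through 1643 to 3556 CPM in OTC control livers, a log2 fold change of -0.70 ± 0.15 (SE, adjusted p = 0.000189, edgeR). Asl ran from 456 through 572 to 845 CPM in OTC sh-Gls2 livers and from 448 through 667 to 2147 CPM in OTC control livers (-0.70 ± 0.22, adjusted p = 0.00996, edgeR). For both genes the lowest control liver lay below the lowest sh-Gls2 liver, and the difference between groups lay at the upper end. Cps1 ran from 4713 through 5615 to 6264 CPM in OTC sh-Gls2 livers and from 5710 through 7265 to 12700 CPM in OTC control livers (-0.53 ± 0.12, adjusted p = 0.000493, edgeR), with 6 of 10 sh-Gls2 livers below every control liver. Ass1 ran from 3671 through 4034 to 4638 CPM in OTC sh-Gls2 livers and from 4489 through 4797 to 10058 CPM in OTC control livers (-0.51 ± 0.13, adjusted p = 0.00093, edgeR), with 8 of 10 sh-Gls2 livers below every control liver.

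The smaller members changed less. Nags fell to a mean of 46.5 ± 4.98 CPM in OTC sh-Gls2 livers, against 57.5 ± 11.05 CPM in OTC control livers (log2 fold change -0.31 ± 0.08, adjusted p = 0.00168, edgeR). Slc25a13 fell to 179 ± 16.9 CPM in OTC sh-Gls2 livers, against 221 ± 43.4 CPM in OTC control livers (-0.31 ± 0.08, adjusted p = 0.00202, edgeR), and Slc25a15 to 262 ± 21.3 CPM, against 339 ± 128 CPM (-0.37 ± 0.15, adjusted p = 0.0345, edgeR; SD, n = 10 sh-Gls2 and 8 control). Otc ran from 59.5 through 75.4 to 87.2 CPM in OTC sh-Gls2 livers and from 43.02 through 61.5 to 79.1 CPM in OTC control livers, with 4 of 10 sh-Gls2 livers above every control liver (0.27 ± 0.08, adjusted p = 0.00874, edgeR). Car5a was not called (-0.04, 95% interval -0.28 to 0.19).

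Part of this contrast rested on OTC control mice 3 and 67. Without them 4 members were called, against 38.5% of all genes, and all 4 were lower: Cps1 (log2 fold change -0.30), Arg1 (-0.35), Nags (-0.25) and Slc25a13 (-0.22). Asl then stood at -0.07 (adjusted p = 0.816), Ass1 at -0.22 (adjusted p = 0.104), Slc25a15 at -0.09 (adjusted p = 0.631) and Otc at 0.19 (adjusted p = 0.075), all by edgeR. When libraries were scaled to the hepatocyte list in place of TMM, the median of all genes moved to 0.14. Then 5 members were called, with Nags, Slc25a15 and Slc25a13 lost, against 38.4% of all genes (30.9% higher, 7.60% lower). On log2(TPM + 1) 6 members were called, without Asl (-0.44, adjusted p = 0.0845, limma) and Slc25a15. In a fit of these groups alone 6 were called, without Otc (0.27, adjusted p = 0.074, edgeR) and Slc25a15. The share of all genes called was not counted on log2(TPM + 1) or in this fit. In the same livers the macrophage list (10 genes, none at zero in all livers) summed to 204 to 355 CPM in OTC sh-Gls2 livers and 109 to 239 CPM in OTC control livers, the stellate list (10 genes) to 318 to 431 CPM and 219 to 279 CPM in those groups, and the cell division list (10 genes) to 5.84 to 49.6 CPM and 3.14 to 4.804 CPM. The hepatocyte list summed to 107780 to 139560 CPM in OTC sh-Gls2 livers and 109570 to 160000 CPM in OTC control livers. Of its 10 genes 5 were called lower and 1 higher with all livers and TMM, against 22.6% and 20.2% of all genes. The median log2 fold change of this list was -0.19, against -0.02 over all genes. The part of these lists in the result was not tested.

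**Figure D3:**
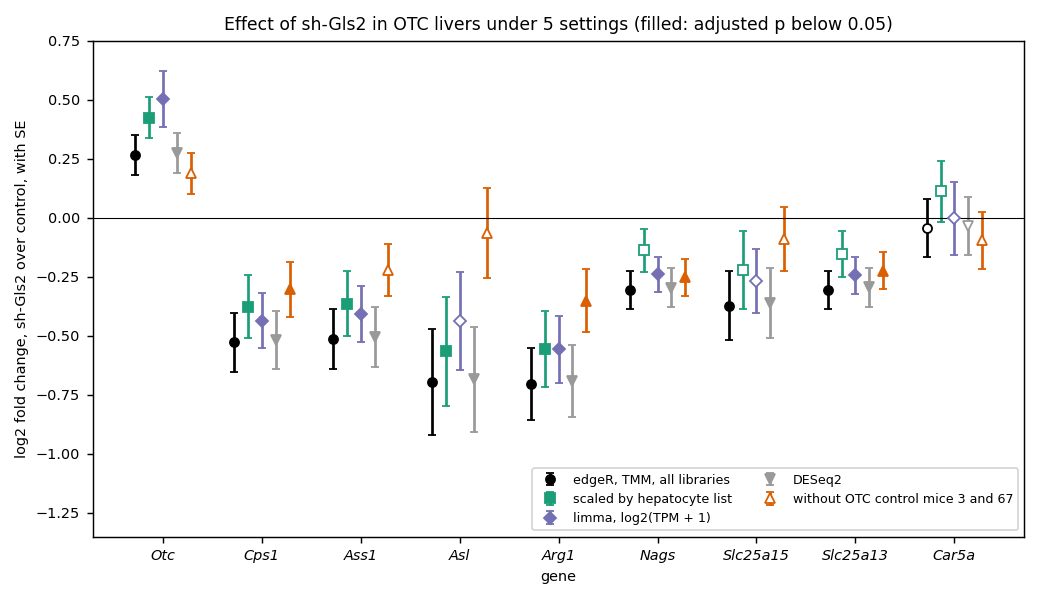
Log2 fold change of each member in OTC sh-Gls2 over OTC control livers (y axis, SE as bars) under 5 settings, with calls filled. Asl lies at -0.70 with all libraries and at -0.07 without OTC control mice 3 and 67, while Cps1, Arg1, Nags and Slc25a13 are filled in both.

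In WT livers sh-Gls2 came with a change in 1 of 9 members, against 34.8% of all genes (17.6% higher, 17.2% lower). Slc25a13, which sends aspartate to the cytosol, ran from 177 CPM through a median of 193 to 210 CPM in WT sh-Gls2 livers and from 185 through 238 to 263 CPM in WT control livers, and 2 of 10 sh-Gls2 livers lay below every control liver. Its log2 fold change was -0.26 ± 0.08 (adjusted p = 0.00625, edgeR), and with scaling to the hepatocyte list it was -0.23 (adjusted p = 0.0621). Otc averaged 521 ± 23.5 CPM in WT sh-Gls2 livers and 522 ± 38.5 CPM in WT control livers (SD, n = 10 each), a log2 fold change with a 95% interval of -0.16 to 0.15. The interval was -0.33 to 0.13 for Cps1, -0.47 to 0.00044 for Ass1, -0.46 to 0.37 for Asl and -0.48 to 0.09 for Arg1. Without OTC control mice 3 and 67, which enter this comparison only through the shared estimate of spread, Ass1 and Car5a were also called, at adjusted p-values of 0.0423 and 0.0496 in edgeR. In these livers the macrophage list summed to 182 to 283 CPM under sh-Gls2 and 126 to 211 CPM under the control vector, and the cell division list to 12.4 to 73.4 CPM and 3.60 to 9.87 CPM, and their part in the result was not tested.

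The difference between strains in the sh-Gls2 effect was tested itself, and it passed for none of the 9 members in edgeR or DESeq2, against 0.338% of all genes in edgeR (0.120% higher, 0.218% lower). An unadjusted p below 0.05 was reached by 4 members, but the share of all genes at that cut was not counted. Asl had the largest p of the 4 and ranked 1271 by p among 13311 genes. The differences of these 4 members, OTC minus WT on the log2 scale, were -0.65 ± 0.31 for Asl, -0.51 ± 0.21 for Arg1, -0.43 ± 0.17 for Cps1 and 0.27 ± 0.11 for Otc, with adjusted p-values of 0.423, 0.34, 0.307 and 0.356 in edgeR. Without OTC control mice 3 and 67 the differences of Asl, Arg1 and Cps1 were -0.02, -0.15 and -0.20. The effect on Slc25a13 was -0.31 in OTC livers and -0.26 in WT livers, and the 95% interval of the difference was -0.26 to 0.18.

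sh-Glud1 changed none of the 9 members in either strain in edgeR or DESeq2, and none had an unadjusted p below 0.05. Over all genes 0.0150% were called in OTC livers and 0.0225% in WT livers. Among the members the largest change in size was 0.12 on the log2 scale in OTC livers (Car5a, 95% interval -0.13 to 0.37) and 0.10 in WT livers (Ass1, -0.14 to 0.34). The intervals were widest for Asl, at -0.51 to 0.42 in OTC livers and -0.33 to 0.52 in WT livers, and narrowest for Nags, at -0.23 to 0.10 in OTC livers and -0.15 to 0.15 in WT livers. None of the 9 members showed a strain difference in the sh-Glud1 effect either (0 at an unadjusted p below 0.05 in edgeR, 0 in DESeq2, 0% of all genes).

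Set directly against sh-Glud1, sh-Gls2 had the same 8 members called in OTC livers as against the control vector, 7 lower and Otc higher, where 40.5% of all genes were called, 19.5% higher and 21.1% lower. The OTC sh-Gls2 livers are shared by these comparisons. Every OTC sh-Gls2 liver (4713 to 6264 CPM) had less Cps1 than every OTC sh-Glud1 liver (6480 to 13092 CPM), a log2 fold change of -0.59 ± 0.12 (adjusted p = 0.000121, edgeR). Of all genes, 3.04% lay wholly lower in this way. Arg1 ran from 1028 through 1176 to 1571 CPM in OTC sh-Gls2 livers and from 1363 through 1786 to 3197 CPM in OTC sh-Glud1 livers, with 9 of 10 sh-Gls2 livers below every sh-Glud1 liver (-0.72 ± 0.15, adjusted p = 0.00015, edgeR). Without OTC sh-Glud1 mice 58 and 65, 5 members were called, against 35.7% of all genes (17.6% higher, 18.1% lower). The log2 fold change of Cps1 was then -0.41 and that of Arg1 -0.45, while Asl (-0.13), Ass1 (-0.27) and Slc25a15 (-0.17) lost their calls. In WT livers 3 members were called, all lower under sh-Gls2 (29.6% of all genes, 15.5% higher and 14.2% lower): Slc25a13, Ass1 and Car5a. Every WT sh-Gls2 liver (177 to 210 CPM) had less Slc25a13 than every WT sh-Glud1 liver (221 to 274 CPM), at -0.31 ± 0.08 (adjusted p = 0.00231, edgeR), and 2.67% of all genes lay wholly lower. Ass1 averaged 3712 ± 375 CPM in WT sh-Gls2 livers (SD, n = 10) and 4685 ± 698 CPM in WT sh-Glud1 livers (n = 9), with an adjusted p of 0.0339 in edgeR. The adjusted p of Car5a was 0.047, and both calls ended when any of several single libraries was left out.

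Variation between mice of a group was itself uneven. The coefficient of variation of the 9 members had a median of 10.7% in OTC sh-Gls2 livers, 23.4% in OTC sh-Glud1 livers, 30% in OTC control livers, 10.2% in WT sh-Gls2 livers, 9.87% in WT sh-Glud1 livers and 17.8% in WT control livers. In OTC control livers Asl stood at 2147 CPM in mouse 3 and 1919 CPM in mouse 67, against 448 to 884 CPM in the other 6 livers. In OTC sh-Glud1 livers Asl stood at 1627 CPM in mouse 58 and 1995 CPM in mouse 65, against 525 to 773 CPM in the other 6. These levels were 3.45, 3.09, 2.40 and 2.95 times the median of the other livers of their group. Cps1, Ass1, Asl, Arg1 and Slc25a15 all had both mice above the rest in either group. These were 5 of 9 members in OTC control livers, and with Slc25a13 6 of 9 in OTC sh-Glud1 livers. The mice were singled out with these levels known, and the share of all genes in this position was not counted. No OTC sh-Gls2 liver had more than 845 CPM of Asl.

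**Figure D4:**
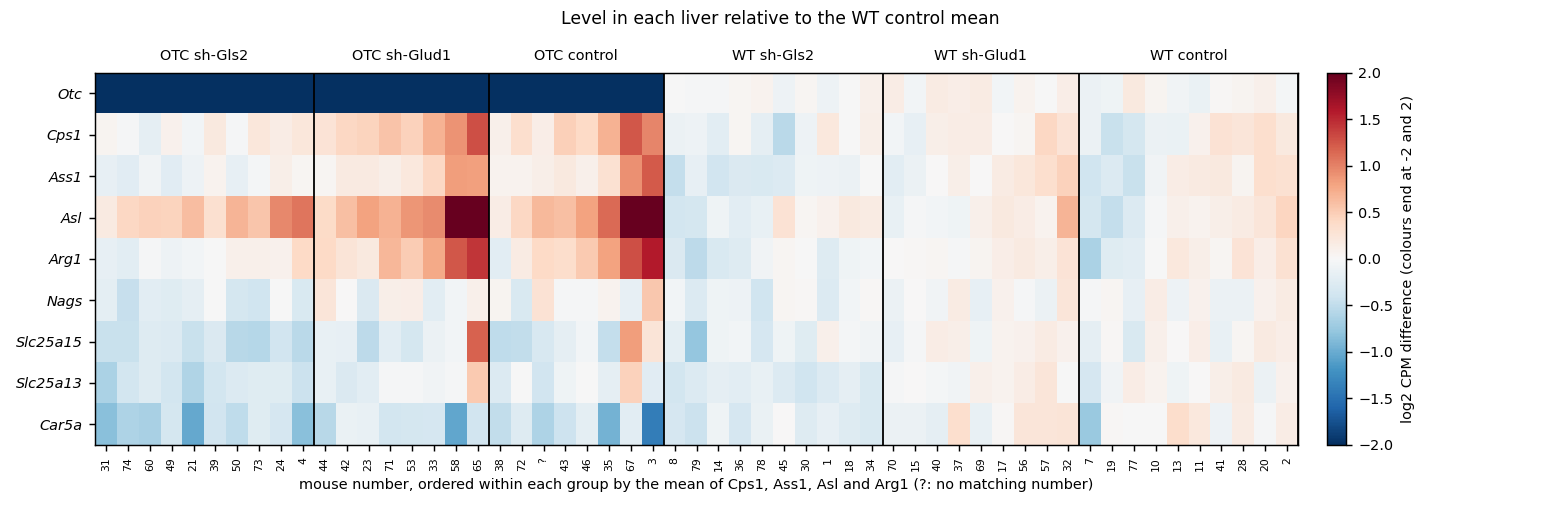
Level of each member (rows) in each of 55 livers (columns), as log2 CPM minus the mean of WT control livers; the colours end at -2 and 2, and mice are ordered within a group by the mean of Cps1, Ass1, Asl and Arg1, with ? for the library whose number matches no title. OTC sh-Glud1 mice 58 and 65 and OTC control mice 67 and 3 stand at the right of their groups in Cps1, Ass1, Asl and Arg1, while Nags does not follow all of them.

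The members did not all follow these mice. Otc was 43.02 CPM in OTC control mouse 3, the lowest of the group, and 59.3 CPM in mouse 67, within the range of the other 6 livers (48.4 to 79.1 CPM). Car5a was 19.7 CPM in mouse 3 and 24.96 CPM in OTC sh-Glud1 mouse 58, each the lowest of its group, and 44.2 and 39.1 CPM in mice 67 and 65. Nags was 79.2 CPM in mouse 3, the highest of its group, and 48.5 CPM in mouse 67. Among regulators of liver metabolism, Ppargc1a (the coactivator of fasting genes) stood at 86.5 and 108 CPM in OTC control mice 3 and 67, against 18.02 to 32.3 CPM in the other 6. In OTC sh-Glud1 mice 58 and 65 Ppargc1a stood at 77.3 and 81.6 CPM, against 19.97 to 40.9 CPM. Pck1, the gluconeogenic enzyme, stood at 6380 and 6200 CPM in mice 3 and 67, against 1069 to 2972 CPM, and at 5988 and 5029 CPM in mice 58 and 65, against 1356 to 3503 CPM. Cebpb, Foxo1, Klf15 and Sirt3 were likewise above the rest in both mice of each group, and Cebpa and Gcgr (the glucagon receptor) below. Of the 13 regulators, both mice lay above the rest in 7 and below in 2 in OTC control livers, and above in 5 and below in 3 in OTC sh-Glud1 livers. Of 12 tested genes of nitrogen supply, both lay above the rest in 7 and in 6, and below in 0; Got1 was 2564 and 1619 CPM in mice 3 and 67, against 235 to 480 CPM. Total counts were 19372936, 15629514, 22672786 and 16837310 in mice 3, 67, 58 and 65, within the range of the other libraries. These are descriptions of 4 livers noticed for their levels, and no test was made of them. The share of all genes with both mice above or below the rest was not counted.

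Levels of some of the members moved together among mice of the same group. Over 36 pairs, deviations of log2 CPM from the group mean were correlated across the 55 livers, and 24 pairs had a positive r, with a median of 0.28. Over all 88584705 pairs of tested genes, 49.8% had a positive r, and the median was -0.000951. A pair was called where the Pearson r had an adjusted p below 0.05 by permutation within groups. Of the 36 pairs, 16 were called, all positive on the CPM scale. These 16 pairs were the ones with an r of at least 0.38, which 4.22% of all pairs of genes had. On log2(TPM + 1) 3 negative pairs were also called: Otc with Cps1 (r = -0.42, adjusted permutation p = 0.00939), Otc with Asl (r = -0.33, adjusted permutation p = 0.0494) and Nags with Slc25a13 (r = -0.40, adjusted permutation p = 0.0274). Asl and Arg1 were the closest, at r = 0.92 and Spearman rho = 0.89. Ass1 and Asl followed (r = 0.87, rho = 0.83), then Ass1 and Arg1 (r = 0.83, rho = 0.80) and Cps1 and Ass1 (r = 0.81, rho = 0.81). For these 4 pairs the permutation p was 1e-05 for r and for rho, the smallest the permutations can give, and 6e-05 when adjusted, and r was positive within each of the 6 groups. Leaving out the 2 livers farthest from the median of the first gene gave r = 0.88, 0.82, 0.76 and 0.77.

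The carriers were also called with the 4 enzymes, except Slc25a13 with Ass1 (r = 0.36, adjusted permutation p = 0.079). These calls rested on the 4 livers that stood apart. Slc25a15 was called with Cps1, Ass1, Asl and Arg1, at r between 0.60 and 0.68 and rho between 0.47 and 0.58, and r was between 0.43 and 0.64 without the 2 livers farthest from the median of the enzyme. Slc25a13 was called with Cps1 (r = 0.51), Asl (0.49) and Arg1 (0.50), with rho between 0.29 and 0.35, of which that with Asl passed the test (adjusted permutation p = 0.0427), and on log2(TPM + 1) its calls with Asl and Arg1 ended (adjusted permutation p = 0.0716 and 0.052). Without OTC control mice 3 and 67 and OTC sh-Glud1 mice 58 and 65, no pair of a carrier with these enzymes was called, and r lay between 0.18 and 0.36. Slc25a15 and Slc25a13 had r = 0.59 (rho = 0.27) with all livers and 0.11 without these 4. Without these 4 livers 8 pairs were called, among them all 6 pairs of Cps1, Ass1, Asl and Arg1, which then had r between 0.46 and 0.80. The 8 pairs had an r of at least 0.38, which 3.18% of all pairs of genes had in that setting. With all livers, Cps1 with Asl and with Arg1 had a positive r in 5 groups, and r of -0.10 and -0.28 in the lowest. On the CPM scale Nags was in no called pair with all livers, and without the 4 it was called with Slc25a15 (r = 0.41). With all livers this pair had r = 0.26 (adjusted permutation p = 0.227) and rho = 0.36, which passed (adjusted permutation p = 0.031). Otc was called on the CPM scale with Car5a only (r = 0.44, permutation p = 0.00577, adjusted 0.0148), while its rho of 0.29 did not pass (permutation p = 0.0596, adjusted 0.119). The r of Otc with Arg1 was -0.35 (permutation p = 0.0527, adjusted 0.105), and -0.15 without the 4 livers.

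**Figure D5:**
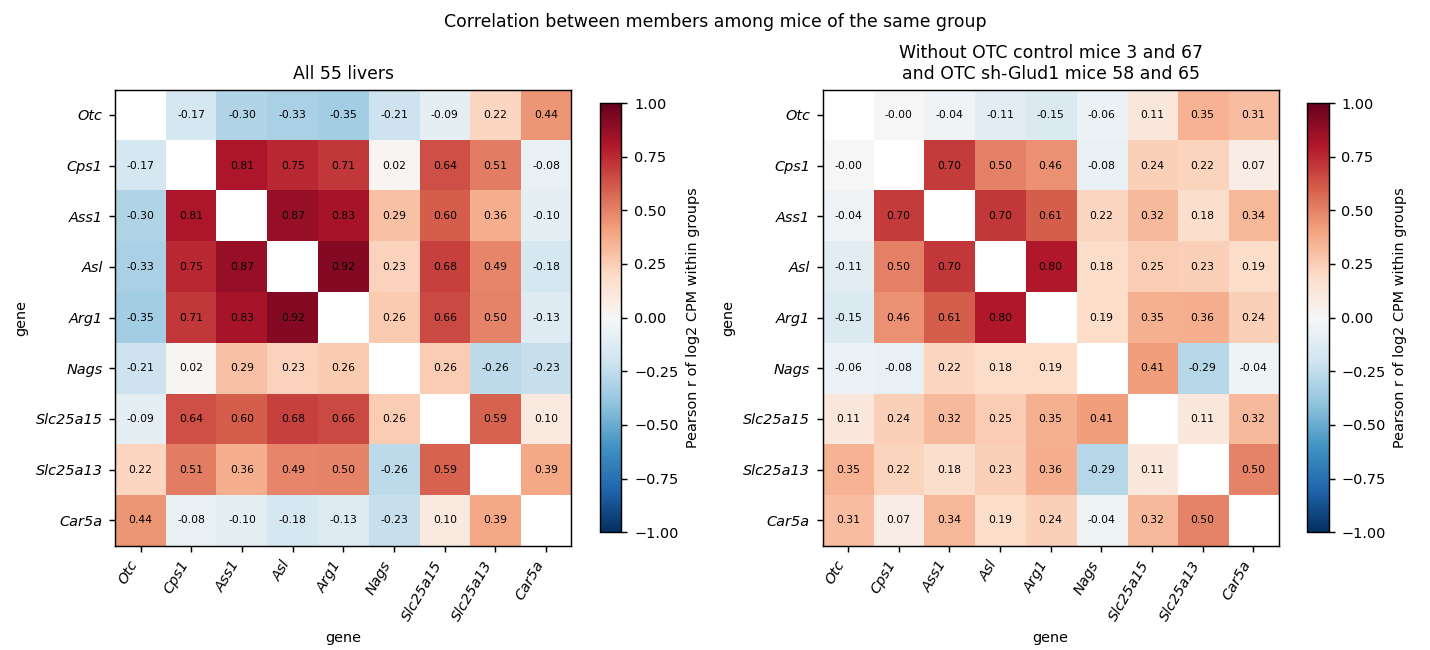
Pearson r of log2 CPM between members, as deviations from group means, over all 55 livers (left) and without OTC control mice 3 and 67 and OTC sh-Glud1 mice 58 and 65 (right). The block of Cps1, Ass1, Asl and Arg1 stands at 0.71 to 0.92 on the left and 0.46 to 0.80 on the right, and the cells of Slc25a15 and Slc25a13 with these 4 genes are paler on the right.

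Most paralogs of the members were scarce in liver, and Car3 was abundant. Car3, a muscle-type carbonic anhydrase of hepatocytes, averaged 3230 ± 723 TPM in WT control livers, where the other 7 paralogs averaged at most 7.17 TPM. Arg2, the mitochondrial arginase, averaged at most 0.27 CPM and Slc25a2 at most 0.22 CPM in any group, and neither passed the filter. Of 8 paralogs 6 were tested. Car5b, the second mitochondrial carbonic anhydrase, rose under sh-Gls2 in OTC livers, to 7.07 ± 1.42 CPM, against 4.29 ± 1.29 CPM in OTC control livers (log2 fold change 0.72, adjusted p = 0.000111, edgeR), and in WT livers, to 5.81 ± 0.99 CPM, against 4.45 ± 0.93 CPM in WT control livers (0.38, adjusted p = 0.0306, edgeR). Slc25a12 (aralar, the other aspartate carrier) rose under sh-Gls2 in WT livers, to 16.8 ± 2.11 CPM, against 13.4 ± 1.40 CPM (0.33, adjusted p = 0.0305, edgeR), where Slc25a13 fell. That call ended with scaling to the hepatocyte list (adjusted p = 0.0619, edgeR). In OTC livers Slc25a12 stood at 20.9 ± 1.72 CPM under sh-Gls2 and 17.8 ± 6.14 CPM under the control vector, and was not called (adjusted p = 0.133, edgeR). Without mice 3 and 67, at 28.4 and 26.7 CPM, the OTC control livers averaged 14.5 ± 1.36 CPM (n = 6), and Slc25a12 was called higher under sh-Gls2 (0.53, adjusted p = 0.000284, edgeR). Between strains under the control vector, Car2 (0.88), Slc25a12 (0.41) and Slc25a29 (0.66) were higher in OTC livers, and Car3 was lower (-1.70), at 4.05 to 2143 CPM in OTC livers and 1861 to 4414 CPM in WT livers. The calls of Slc25a12 (0.11, adjusted p = 0.488, edgeR) and Slc25a29 (0.32, adjusted p = 0.298, edgeR) ended without mice 3 and 67. Cad, whose first step also makes carbamoyl phosphate, had a log2 fold change of -0.42 and was not called (adjusted p = 0.123, edgeR).

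Among genes that feed nitrogen and carbon to the cycle, the counts of calls between strains rested in part on mice 3 and 67. Under the control vector, 4 of 12 nitrogen genes were higher in OTC livers and 3 lower, against 19.9% and 16.4% of all genes; without these mice 1 was higher and 4 lower, and 28.8% of all genes were called. Got1, cytosolic aspartate transaminase, averaged 787 CPM in OTC livers and 249.1 CPM in WT livers (log2 fold change 1.66 ± 0.33). The OTC mean of Got1 was 352 CPM when mice 3 and 67 were left out, and its call ended (0.49, adjusted p = 0.151, edgeR). Glul, glutamine synthetase of pericentral hepatocytes, averaged 302 CPM in OTC livers and 688 CPM in WT livers (-1.19 ± 0.24). Oat, ornithine aminotransferase, fell by 0.85 on the log2 scale. In OTC livers under sh-Gls2 3 of 12 were called, all lower, against 22.6% of all genes: Gls2 itself, Got1 (-1.42 ± 0.33; 295 CPM, against 787 CPM under the control vector) and Slc25a22, a mitochondrial glutamate carrier (-0.35). The calls of Got1 (-0.26, adjusted p = 0.453, edgeR) and Slc25a22 (-0.31, adjusted p = 0.0802, edgeR) ended without mice 3 and 67. In that setting 2 of 12 were called higher and 2 lower, against 18.7% and 19.7% of all genes. In WT livers 2 of 12 fell, Gls2 and Glul (-0.62), against 17.2% of all genes. Under sh-Glud1 the hairpin's target was the 1 called in each strain, at -1.27 in OTC livers and -1.42 in WT livers.

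Of 9 genes on the carbon side, Slc25a11 (0.43), Mdh2 (0.38) and Fh1 (0.49), which handles the fumarate that Asl releases, were higher in OTC control livers than in WT control livers, and Aldh4a1 (-0.48) was lower, 4 of 9 against 36.3% of all genes. The calls of Mdh2 (0.18, adjusted p = 0.0819, edgeR) and Fh1 (0.21, adjusted p = 0.264, edgeR) ended without mice 3 and 67. Under sh-Gls2 in OTC livers Slc25a11 (-0.49) and Fh1 (-0.89) fell, 2 of 9 genes called against 42.7% of all genes. In WT livers Slc25a11 (-0.20), Fh1 (-0.39) and Slc25a10 (-0.35) fell and Mdh2 (0.24) rose, 4 of 9 against 34.8% of all genes. Fh1 averaged 128 CPM in OTC sh-Gls2 livers and 238 CPM in OTC control livers, and 129 CPM in WT sh-Gls2 livers and 169 CPM in WT control livers. The OTC control mean of Fh1 was 197 CPM with mice 3 and 67 left out. The log2 fold changes under sh-Gls2 were then -0.62 for Fh1 and -0.37 for Slc25a11, both called, while Mdh2 was called higher (0.25). In that setting 38.5% of all genes were called. With scaling to the hepatocyte list none of the 3 falls in WT livers was called, where 10.3% of all genes were called lower. Of 7 tested genes of urea and arginine exit, 3 were called between OTC control and WT control livers, against 36.3% of all genes. Azin2 (1.66) was higher in OTC control livers, and Agmat (-0.51) and the urea channel gene Aqp9 (-0.24) were lower. Azin2 was scarce, with a median of 1.275 TPM in OTC control livers and 0.395 TPM in WT control livers. All 3 were also called without mice 3 and 67, where 28.8% of all genes were called.

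Of 13 regulators, 4 were higher and 4 lower in OTC control livers than in WT control livers, against 19.9% and 16.4% of all genes, and 2 and 3 without mice 3 and 67. Ppargc1a led the rises (43.98 CPM, against 13.4 CPM in WT livers; log2 fold change 1.71 ± 0.27), with Hnf4a (0.42) and Foxo1 (0.56), and Creb3l3 fell (-0.55). In the OTC control livers other than mice 3 and 67 the mean of Ppargc1a was 26.2 CPM (log2 fold change 0.95, adjusted p = 0.00123, edgeR), Hnf4a stood at 0.26 and was called, and Foxo1 at 0.15 was not (adjusted p = 0.228, edgeR). Under sh-Gls2 6 of 13 fell in OTC livers, against 22.6% of all genes, among them the mitochondrial deacetylase Sirt3 (-0.48), Foxo1 (-0.53), Cebpa (-0.39) and Gcgr (-0.17). Without mice 3 and 67, 3 of 13 fell and 2 rose, against 19.7% and 18.7% of all genes. Foxo1 then lost its call (-0.13, adjusted p = 0.283, edgeR), while Sirt3 (-0.35), Cebpa (-0.53) and Gcgr (-0.24) were called. With scaling to the hepatocyte list 2 of 13 fell, against 7.60% of all genes. Under that scaling Cebpa was not called (-0.23, adjusted p = 0.117, edgeR), and the log2 fold change of Gcgr was 0.00010. In WT livers 2 fell, Gcgr (-0.23) and Nr3c1, the glucocorticoid receptor (-0.24), against 17.2% of all genes. The periportal list (12 genes) had 5 higher and 2 lower in OTC control livers than in WT control livers, and the pericentral list (10 genes) 0 higher and 6 lower, where 19.9% of all genes were higher and 16.4% lower. With sh-Gls2 in OTC livers the periportal list had 3 higher and 2 lower and the pericentral list 5 higher and 0 lower, where 20.2% of all genes were higher and 22.6% lower. Without mice 3 and 67 the periportal list had 3 higher and 1 lower between strains, where 28.8% of all genes were called in either direction. The pericentral list then had 4 higher and 0 lower under sh-Gls2 in OTC livers, where 18.7% of all genes were higher and 19.7% lower. The pericentral counts between strains and the periportal counts under sh-Gls2 are not given here for that setting. The members are themselves periportal genes in the main, and the part of zonation in their levels was not tested.

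Promoters were available for 6 of the 9 members. They are shown for Slc25a13 and Nags, the members that fell under sh-Gls2 in OTC livers also without mice 3 and 67 and whose promoters were available. The 250 bases before the annotated start are given 5′ to 3′ (RefSeq, GRCm38.p6), at chr6:6217174-6217423 on the minus strand (Slc25a13) and chr11:102145263-102145512 on the plus strand (Nags), with motif matches in capitals.
Slc25a13: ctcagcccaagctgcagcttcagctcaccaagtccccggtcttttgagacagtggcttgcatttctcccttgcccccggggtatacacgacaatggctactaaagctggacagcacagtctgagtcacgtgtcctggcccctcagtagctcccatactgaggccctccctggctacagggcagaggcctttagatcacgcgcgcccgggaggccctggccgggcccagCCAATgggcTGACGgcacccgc
Nags: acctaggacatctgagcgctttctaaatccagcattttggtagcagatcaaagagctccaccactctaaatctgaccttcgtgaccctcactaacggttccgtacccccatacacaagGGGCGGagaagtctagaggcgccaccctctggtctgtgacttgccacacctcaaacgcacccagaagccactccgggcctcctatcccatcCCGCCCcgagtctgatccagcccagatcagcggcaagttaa
Motifs were searched on both strands of the 300-base windows around each start, and none overlapped another motif in the members shown. The GC box, GGGCGG, was found in Ass1, Nags and Slc25a15, and 35.7% of 32851 promoters hold it. The CCAAT box, CCAAT, was found in Slc25a13 and Car5a, and 37.4% of promoters hold it. The core of the cyclic AMP element, TGACG, was found in Slc25a13 and, after the start, in Nags, and 20.8% of promoters hold it. Otc had none of these. A match is a description of the letters, and its absence says only that they are not in this window.

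For each member the genes of most like pattern were sought over the 55 livers, by the root mean square (RMS) difference of centred log2 CPM, among 10830 genes. Asl was nearest to Mat1a (RMS difference 0.24 on the log2 scale, where the SD of Asl itself was 0.64), the methionine adenosyltransferase of liver, and Arg1 to Nucks1 (0.20). Cps1 was nearest to Sdhd (0.20), a subunit of succinate dehydrogenase, and Ass1 to Atp5o (0.16), a subunit of the ATP synthase. Slc25a13 was nearest to Ptgr2 (0.11), Slc25a15 to Mmachc (0.18), Nags to Mta2 (0.13) and Car5a to Aldh9a1 (0.17). Otc was nearest to Alas2 (0.61, where the SD of Otc was 1.55). The RMS differences are not ranked between members, whose own SDs differed (0.19 for Nags).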

How the data were processed

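Per the labels, livers of 55 mice were sequenced as strand-specific messenger RNA libraries. The authors deposited raw read counts per gene symbol and TPM values (transcript abundance scaled by the authors for length and library size). The submitters' processing notes name CASAVA 1.8.2, FastQC and GRCm38; the aligner, counter and annotation are not given in the sources used here. One OTC control library has a mouse number that matches no title and was placed by its column name. No library pair of a group looked deposited in duplicate (smallest chi-square over degrees of freedom 11.1 in 227 pairs). Whether mice shared litters, cages or sequencing runs is not given.

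Counts were filtered with filterByExpr (minimum count 10, minimum total 15), scaled by TMM factors (0.924 to 1.12) and fitted in edgeR 4.0.16 (R 4.3.3) with 1 term for each of the 6 groups over 55 libraries; quasi-likelihood tests were two-sided, with Benjamini-Hochberg adjustment over 13311 genes and calls at 0.05. CPM are TMM-normalized; SDs are between mice and 95% intervals are the log2 fold change plus or minus 1.96 SE. Reads carry no molecular identifiers. Correlations used 100000 permutations within groups (NumPy 2.4.6), adjusted over 36 pairs. The steps were tested on simulated counts. The alternatives were DESeq2 1.42.0, DESeq2 size factors, scaling to a hepatocyte list, other filters, fits of the compared groups alone, limma 3.58.1 on log2(TPM + 1) and log2(TPM + 0.1), and omissions of livers; list genes were refitted without the livers that stood apart and with hepatocyte scaling. From each list, the text names every paralog called and up to 4 genes of smallest adjusted p per comparison. The members, lists and tests were chosen with earlier results of these data known. One gene of the nitrogen supply list is counted there but not reported by name here.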

Additional observations from a re-analysis of the deposited data

Results flagged for a closer look

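Of the 54 combinations of 9 members and 6 groups, 8 held a liver that stood far from the rest of its group by Dixon's criterion, where chance flags about 1 in 20. Slc25a15 and Slc25a13 were each set apart in the same livers: OTC sh-Glud1 mouse 65, with 793 CPM of Slc25a15 and 333 CPM of Slc25a13, and OTC control mouse 67, with 622 CPM of Slc25a15 and 319 CPM of Slc25a13. Otc was highest in OTC sh-Glud1 mouse 42, at 74.5 CPM. Arg1 was highest in OTC sh-Gls2 mouse 4, at 1571 CPM, and Asl in WT sh-Glud1 mouse 32, at 646 CPM. Car5a was lowest in WT control mouse 7, at 30.4 CPM.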

How the results depend on the processing

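Apart from the series that left out each liver in turn, 1222 of 1287 single-gene values counted as unchanged and 65 did not. The planned omission of WT control mouse 13 is among these settings. A value counted as unchanged if it was called in the same direction in both fits, or called in neither, whatever its direction. Over omissions of each liver in turn, 2112 of 2142 counted as unchanged. In OTC livers under sh-Gls2 against the control vector, 8 members were called, 5 with hepatocyte scaling, 6 on log2(TPM + 1), log2(TPM + 0.1) or in a fit of the compared groups alone, 4 without OTC control mice 3 and 67 (also when WT control mouse 13, or OTC sh-Glud1 mice 58 and 65, were left out too), and 6 to 8 with single livers left out. Asl was lost there without control mouse 3 (adjusted p = 0.101) or 67 (0.0709). In WT livers under sh-Gls2 against the control vector, 1 member was called, and 0 with hepatocyte scaling, against 26.4% of all genes. The count was 2 in a fit of the compared groups alone, and 1 to 2 with single livers left out. Without OTC control mice 3 and 67 it was 3, against 37.8% of all genes. It was also 3 when OTC sh-Glud1 mice 58 and 65 were left out too. For sh-Gls2 against sh-Glud1 in OTC livers the 8 calls became 4 with hepatocyte scaling, against 34.2% of all genes. They became 5 without OTC sh-Glud1 mice 58 and 65, against 35.7% of all genes. In WT livers the 3 calls became 1 with hepatocyte scaling, against 22.2% of all genes. They became 5 without the 4 OTC livers, and 1 to 3 with single livers left out. For OTC against WT under sh-Gls2 the 3 calls became 5 on log2(TPM + 1) and log2(TPM + 0.1), with Cps1, Ass1 and Arg1 gained and Car5a lost (adjusted p = 0.179 and 0.181), where the median of all genes stood at 0.12 and 0.14. The share of all genes called was not counted on TPM or in fits of the compared groups alone. Nor was it counted for larger sets of livers left out, or for single livers. The 16 called correlations became 17 on log2(TPM + 1), with 3 negative pairs gained, and 8 without the 4 OTC livers. Slc25a15 turned round between strains under sh-Glud1, with a log2 fold change of 0.0041 in all livers and -0.30 without those 4 (adjusted p = 0.007). The omissions of OTC sh-Glud1 mice 58 and 65 were chosen after seeing the data. OTC control mice 3 and 67 were also singled out with the members' values known, as stated above. The cause of the changes given above was not tested. No paired analysis was possible because each mouse number belongs to a single mouse.

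Livers taken at a single time from 1 sex on 1 diet, 8 to 10 to a group, limit what these values cover. Between strains and vectors, the 95% intervals of Asl for sh-Glud1 reached -0.51 and 0.52 on the log2 scale.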
